A study of Mus musculus with 24 samples.

Results

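The comparison set Carma3xpA/+ embryoid bodies at day 10 (d10) against Carma3xpA/+ embryoid bodies at day 6 (d6), with 3 samples on each day. These 6 samples were taken from a series of 24, and the members were chosen by genotype and day alone. Poly(A) RNA was sequenced from mouse embryonic stem (ES) cells of strain 129/Sv and from the embryoid bodies they formed, in Carma3xpA/+ and in wild type (WT) cells, at d0, d3, d6 and d10 with 3 samples in each group. WT embryoid bodies at d10 and d6 served here only to ask whether the change over these days differed between the genotypes.

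All groups share the same handling. ES cells were kept on mouse embryonic fibroblasts in medium with serum and LIF, and differentiation towards heart cells was started by letting about 1000 cells aggregate in hanging drops, in a medium with serum and ascorbic acid. In the usual notation Carma3xpA/+ means that one allele of Carma carries a cassette of polyadenylation signals, which end transcription early, while the other allele is intact. The labels do not say how many clones the line comes from, nor whether replicates were separate cultures. A p-value here sets a difference against the spread between replicates within a group, pooled over all groups in the fit. That spread may be technical. An embryoid body is a mixture of many cell types, and in such bulk RNA fewer cells of a type and less RNA per cell cannot be told apart. Carma is a long noncoding RNA gene next to Gata5, and it was not analysed here because only protein-coding genes were used.

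Embryoid bodies pass through an early phase in which mesoderm gives rise to primitive blood, endothelium and cardiac progenitors, and a later phase in which beating heart muscle, smooth muscle and fibroblast-like cells build up contractile proteins and matrix. Heart muscle contracts when thick filaments of myosin slide along thin filaments of actin, and troponin on the thin filament switches this on with calcium. In the early heart the slow skeletal troponin I (Tnni1) precedes the cardiac form (Tnni3), and the natriuretic peptides Nppa and Nppb mark working chamber muscle.

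Values are FPKM (fragments per kilobase of transcript scaled to the mapped fragments of the library) as the authors deposited them. Differences and their standard errors (SE) are on the log2(FPKM + 1) scale, which understates the change of genes with low values, and calls were made in limma where the p-value, adjusted by the Benjamini-Hochberg method over 13373 genes, was under 0.05. Fold changes are ratios of mean FPKM. The number of reads behind each library is unknown.

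Of 13373 genes, limma called 7398 between Carma3xpA/+ d10 and d6, or 55.3% of those tested. The calls comprised 3508 genes that rose (26.2%) and 3890 that fell (29.1%), and the median difference over all genes was -0.0189 on the log2 scale. The d10 and d6 values did not overlap for 62.6% of all genes. A difference of at least 1 on the log2 scale was reached by 719 of the genes that rose and 652 of those that fell. In WT 6486 genes were called between d10 and d6 (48.5%), 3295 higher and 3191 lower. With so many genes called, the counts of calls in each list of genes below are to be read beside these percentages.

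The libraries differed in 3 ways that bear on all values. Replicates 1 and 2 of Carma3xpA/+ d10 were the least alike of all pairs of embryoid body samples within a group, with Pearson correlations across genes of 0.967 between replicates 1 and 2, 0.982 between 1 and 3 and 0.988 between 2 and 3. The sum of 5 yolk sac endoderm markers was 234, 1132 and 677 FPKM in the 3 Carma3xpA/+ d10 samples, against 410, 479 and 537 FPKM in the 3 Carma3xpA/+ d6 samples. The sum of 5 cardiomyocyte markers was 144, 75.6 and 138 FPKM at d10, against 46.6, 51.2 and 51.1 FPKM at d6. By these sums replicate 2 at d10 was the richest in endoderm markers and the poorest of its group in heart muscle markers. Its heart muscle sum still lay above every d6 sample. In that sum Tnnt2, Myh6 and Actn2 were called higher. The 2 markers of low level had lower means at d10, Ryr2 with 0.809 against 1.29 FPKM and Ttn, not tested, with 0.404 against 0.555 FPKM.

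The values also shifted with the length of the transcript. Of the genes tested, 13294 had a protein-coding transcript length in the GENCODE M21 annotation. Among 2530 genes with transcripts of up to 1000 nucleotides the median Carma3xpA/+ d10 minus d6 difference was 0.22 on the log2 scale, and among 669 genes with transcripts over 6000 nucleotides it was -0.56. In WT the same medians were 0.12 and -0.40. The longest class deviated from the mean over all samples by -0.07, -0.45 and -0.28 in Carma3xpA/+ d10 replicates 1, 2 and 3, and by 0.32, 0.30 and 0.27 in the Carma3xpA/+ d6 samples. The part of transcript length in any single result was not tested, so counts of Carma3xpA/+ calls are given below also after the length trend of each library was removed wherever that changed them by more than 1.5 times or ended a named call.

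**Figure D1:**
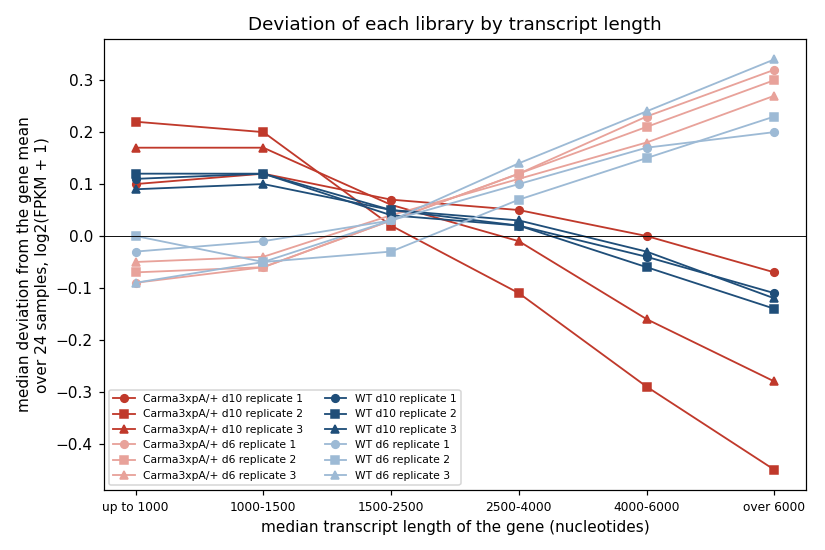
Median deviation of each library from the gene means (vertical axis, log2(FPKM + 1)) in 6 classes of transcript length (horizontal axis, nucleotides), with a line for each sample. Carma3xpA/+ d10 replicate 2 reaches -0.45 for transcripts over 6000 nucleotides, while all d6 samples of both genotypes lie above 0 there.

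Actg2, the enteric smooth muscle gamma actin, rose furthest in Carma3xpA/+ among genes reaching 5 FPKM. It had 73.8, 125 and 119 FPKM in the Carma3xpA/+ d10 samples, against 0.651, 0.860 and 0.708 FPKM in the Carma3xpA/+ d6 samples. The groups were far apart, 143-fold by their means, with a log2 difference of 5.91 ± 0.15 (SE, adjusted p = 4.5e-16). The next in size were Saa3, an acute phase protein (5.45), the chemokine Ccl17 (5.11), Igfbp7, a secreted binder of insulin-like growth factors (5.11), and Ankrd1, a stretch-responsive ankyrin protein of muscle (4.88). Glipr1 (4.75), the serpin Serpina3n (4.67), the macrophage scavenger receptor Marco (4.60), the chemokine Ccl7 (4.58) and lysozyme Lyz2 (4.56) completed the 10 largest rises among genes reaching 5 FPKM with no overlap between the groups.

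Among such genes Pyy, a gut peptide hormone, fell furthest, by 3.72 on the log2 scale, and the embryonic globins Hbb-bh1 and Hba-x each by 3.69. Apob, the scaffold of lipoprotein particles, fell by 3.60. Kdr, the main VEGF receptor (-2.99), Cfc1, a Nodal co-receptor (-2.97), the apelin receptor Aplnr (-2.62), Slc4a1, the red cell anion exchanger (-2.55), and Tal1, the master factor of blood and endothelial fate (-2.48), were also among the largest falls.

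**Figure D2:**
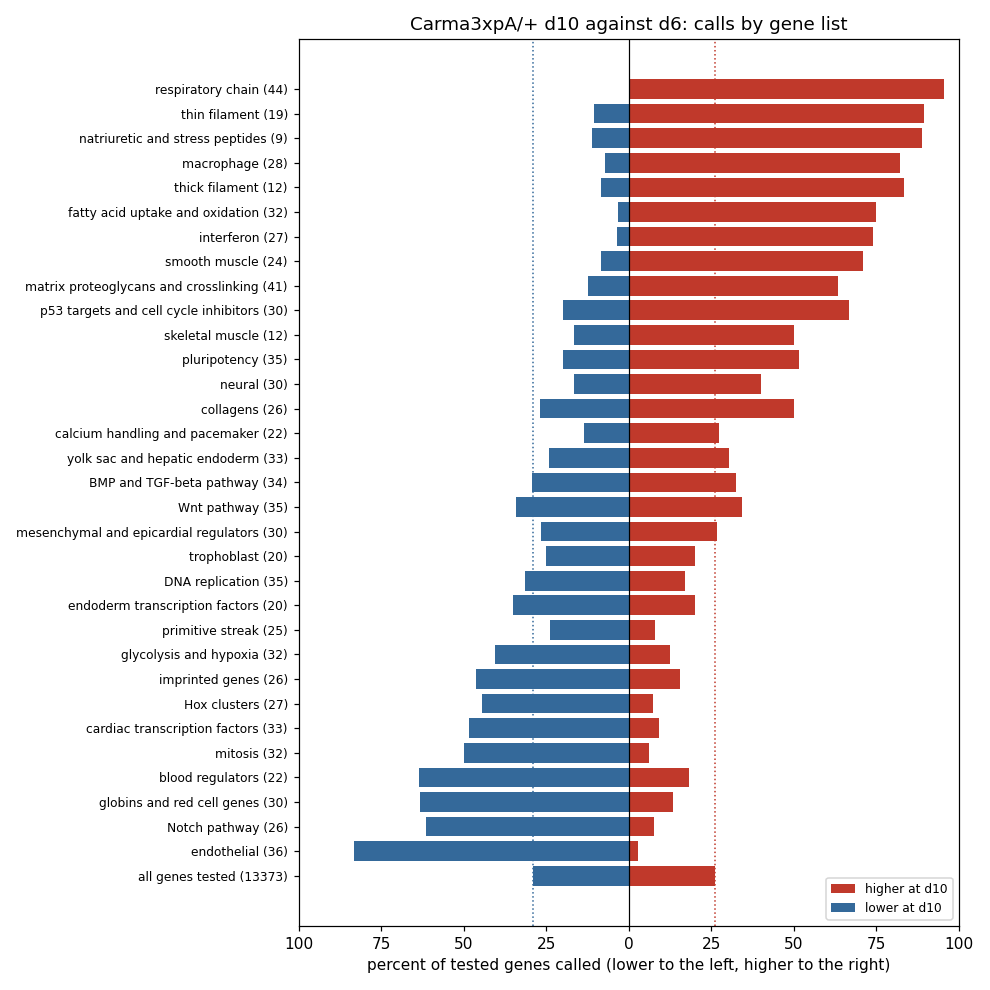
Percent of tested genes called in each of 32 gene lists in Carma3xpA/+ d10 against d6, with bars to the right for genes that were higher at d10 and to the left for genes that were lower, and the number tested in brackets. Dotted lines mark the shares over all 13373 genes, 26.2% higher and 29.1% lower, and the respiratory chain and thin filament lists stand at the top while the endothelial list stands next to the bottom row, which shows all genes.

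Sarcomere genes rose almost throughout. Of 12 thick filament genes tested 10 rose and 1 fell, with a median difference of 1.16, and of 19 thin filament genes 17 rose and 2 fell, with a median of 1.53, against the median of -0.0189 over all genes. The thin filament list also holds genes that are not of the thin filament, such as Actn2, Csrp3, Tcap and Des, which rose, and Myocd, which fell. The cardiac troponin I gene Tnni3 had 52.3, 39.9 and 58.8 FPKM in Carma3xpA/+ d10 samples, against 3.42, 5.78 and 5.64 FPKM in Carma3xpA/+ d6 samples. The groups did not overlap, and the means differed 10.2-fold (log2 difference 3.12 ± 0.16, adjusted p = 7.7e-12). The slow skeletal form Tnni1 rose less. It had 34.7, 31.8 and 35.6 FPKM at d10, against 18.0, 19.7 and 22.0 FPKM at d6 (0.75 ± 0.13, adjusted p = 5.6e-05), so the order of the 2 troponin I genes was reversed, with Tnni3 above Tnni1 in every d10 sample and below it in every d6 sample.

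Cardiac alpha actin, Actc1, was the most abundant sarcomere actin. It had 538, 347 and 549 FPKM in Carma3xpA/+ d10 samples, against 168, 182 and 194 FPKM in Carma3xpA/+ d6 samples (1.37 ± 0.29, adjusted p = 0.00050). Skeletal alpha actin, Acta1, was lower in level and rose further, to 58.2, 48.4 and 68.2 FPKM at d10, against 7.67, 5.29 and 8.94 FPKM at d6 (2.85 ± 0.29, adjusted p = 1.3e-07). Csrp3, the muscle LIM protein of the Z-disc, rose by 2.92, and Tnnt2, cardiac troponin T, by 1.32 (adjusted p = 7.3e-06). The 2 genes of the thin filament list that fell were Myocd, a transcriptional co-activator (-1.30), and the long nebulette gene Nebl (-0.47). The groups of Nebl overlapped, and its call was lost without d10 replicate 2.

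Among the myosin chains, the atrial light chain Myl7 had 712, 565 and 797 FPKM at d10 in Carma3xpA/+, against 321, 322 and 393 FPKM at d6 (0.99 ± 0.31, adjusted p = 0.012). The ventricular light chain Myl2 was less abundant but increased more, with 105, 80.3 and 119 FPKM at d10, against 11.2, 21.5 and 18.4 FPKM at d6 (2.54 ± 0.27, adjusted p = 2.3e-07). Mybphl, a myosin binding protein of the conduction system, and Smpx, a small stretch-responsive protein, rose by 2.77 and 2.02. The alpha heavy chain Myh6 had 75.5, 36.8 and 66.4 FPKM at d10, against 26.5, 30.7 and 28.5 FPKM at d6 (0.98 ± 0.18, adjusted p = 0.00013). All 3 d10 samples lay above the d6 samples, with replicate 2 near them. The beta heavy chain Myh7 was not called, at 16.2, 13.4 and 15.9 FPKM at d10, against 14.2, 10.04 and 13.9 FPKM at d6 (0.25 ± 0.12, adjusted p = 0.081). Myh7b, a heavy chain with low values, was the thick filament gene that fell (-0.40), and it was not called once the length trend was removed (0.16, adjusted p = 0.35).

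Nppa and Nppb came up from almost nothing. Nppa had 16.5, 7.60 and 14.9 FPKM in Carma3xpA/+ d10 samples, against 0.158, 0 and 0.631 FPKM in Carma3xpA/+ d6 samples (3.43 ± 0.22, adjusted p = 1.2e-10). Nppb had 22.1, 15.9 and 26.3 FPKM at d10, against 0.647, 0.593 and 0.730 FPKM at d6 (3.73 ± 0.20, adjusted p = 1.2e-11). Of 9 genes in the list of natriuretic and stretch-responsive genes 8 rose and 1 fell, with a median of 2.92. Among them Acta1, Actc1 and Csrp3 are also counted in the thin filament list, so the muscle lists are not separate sets. Ctgf, a matricellular growth factor, rose by 3.75, and Ankrd23 fell by 0.50 with overlapping groups, a call that was lost without d10 replicate 2 or d6 replicate 3.

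**Figure D3:**
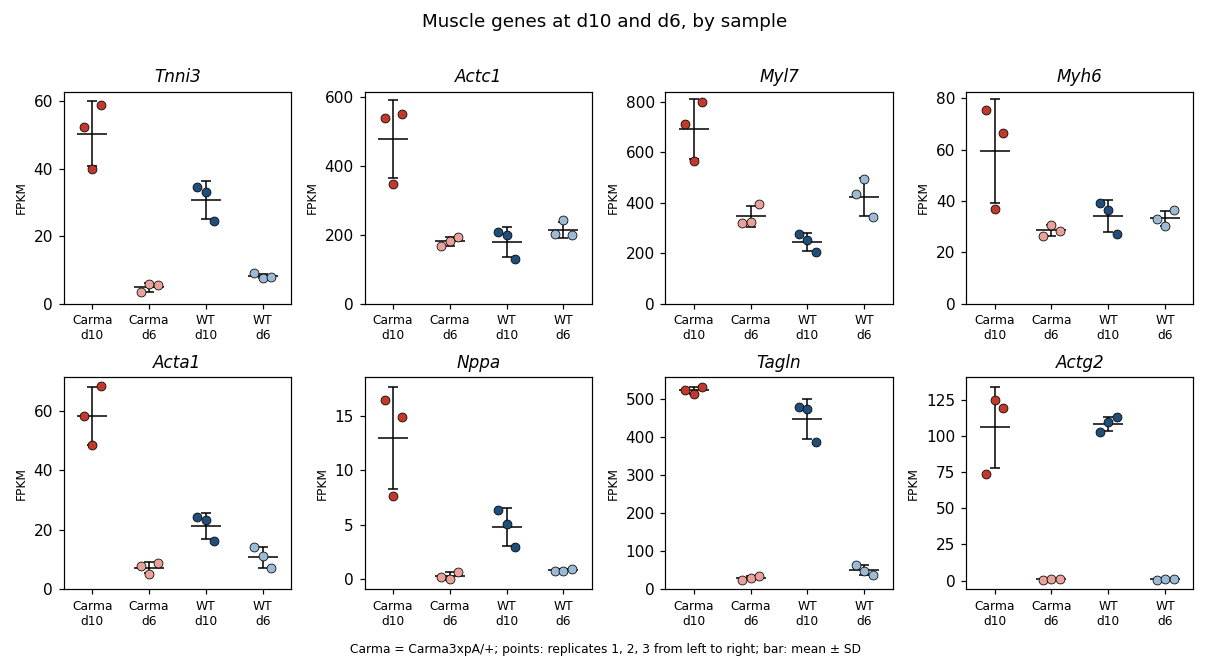
FPKM (vertical axis, each panel on its own scale from 0) of 8 muscle genes in Carma3xpA/+ d10, Carma3xpA/+ d6, WT d10 and WT d6, with a point for each replicate and a bar for the mean ± SD. In Carma3xpA/+ every d10 point lies above every d6 point in all 8 panels, and for Actc1, Myl7 and Myh6 the WT d10 points do not show this.

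Set against this, regulators of heart development fell more often than they rose. Of 33 cardiac transcription factors and related genes 16 fell, 3 rose and 14 were not called (median -0.54). The shares over all genes were 29.1% lower and 26.2% higher. With the length trend removed 5 genes of the list rose. Hand1, a factor of the first heart field and the extraembryonic mesoderm, fell by 1.95 and Tbx1, a second heart field factor, by 1.65. Nkx2-5, the core cardiac homeobox gene, had 5.96, 3.71 and 6.38 FPKM at d10 in Carma3xpA/+, against 10.8, 6.59 and 9.25 FPKM at d6 (-0.64 ± 0.17, adjusted p = 0.0030). Isl1, which marks second heart field progenitors, fell by 0.79 (adjusted p = 0.0029). The genes that rose were Shox2, a factor of the sinoatrial node (0.98), the noncanonical ligand Wnt11 (0.68) and Irx4, a ventricular factor at about 1 FPKM (0.22), whose call was lost without any single d10 sample.

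Gata5, the neighbour of Carma and an early cardiac and endoderm GATA factor, lies at chr2:180325133-180334699 on the minus strand in mm10. It had 3.72, 1.92 and 2.89 FPKM in Carma3xpA/+ d10 samples, against 10.98, 9.62 and 10.01 FPKM in Carma3xpA/+ d6 samples, a fall of 1.57 on the log2 scale (SE 0.12, adjusted p = 1.8e-09). In WT it had 1.25, 1.24 and 1.02 FPKM at d10, against 10.6, 11.4 and 9.14 FPKM at d6. The d6 samples of the genotypes overlapped, and every Carma3xpA/+ d10 sample lay above every WT d10 sample. The fall in Carma3xpA/+ was smaller by 0.82 (adjusted p = 0.0060). Of 19 genes tested within 500 kb of Gata5, with Gata5 counted, 6 rose and 8 fell over these days in Carma3xpA/+. Over all genes 26.2% rose and 29.1% fell. The step differed between genotypes for Gata5 and for Lama5, a laminin chain. Lama5 had a mean of 4.74 ± 0.648 FPKM at d10 and 10.99 ± 1.96 FPKM at d6 in Carma3xpA/+ (SD, n = 3 each), and its step lay 0.84 below that of WT (adjusted p = 0.013).

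Genes of calcium handling and the pacemaker current did not move as a group. Of 22 tested 6 rose and 3 fell, or 8 without d10 replicate 1, with a median of 0.03. Pln, the phospholamban gene that restrains the calcium pump of the sarcoplasmic reticulum, rose by 1.71, and the calcium buffer Casq1 by 1.84. The pump gene Atp2a2 itself had 59.6, 31.7 and 48.1 FPKM at d10, against 49.3, 48.3 and 45.0 FPKM at d6, and was not called (-0.08 ± 0.16, adjusted p = 0.70). With the length trend removed it was called higher (0.25, adjusted p = 0.048). Its groups overlapped, with replicates 1 and 2 at d10 on either side of the d6 samples. The falls were of genes with long transcripts, Hcn4 (the pacemaker channel, -0.50), Cacna1d (-0.48) and the ryanodine receptor Ryr2 (-0.35). With the length trend removed none of these 3 was called (0.06, 0.09 and 0.08), and 9 of the 22 genes rose and 0 fell. Hcn4 also lost its call without d10 replicate 2.

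The step of the sarcomere genes differed between the genotypes. Over all genes limma called a difference between the Carma3xpA/+ step and the WT step for 565 of 13373, or 4.22%, with 202 steps higher in Carma3xpA/+ (1.51%) and 363 lower (2.71%). The total was 235 with a pseudocount of 0.1, 190 with a filter at 5 FPKM and 214 with a log2 difference of at least 1. It was 937 without Carma3xpA/+ d10 replicate 1, and the count of higher steps was 314 without Carma3xpA/+ d10 replicate 2. Of the 12 thick filament genes 10 had a higher step in Carma3xpA/+ and of the 19 thin filament genes 12, with 0 lower in both lists. In the WT step alone 4 thick filament genes rose and 4 fell (median 0.10) and 8 thin filament genes rose and 3 fell (median 0.20), beside shares over all genes in WT of 24.6% higher and 23.9% lower.

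Tnni1 showed opposite steps. In Carma3xpA/+ it averaged 34.02 ± 1.97 FPKM at d10 and 19.9 ± 2.01 FPKM at d6, and in WT 19.5 ± 2.24 FPKM at d10 and 33.0 ± 3.54 FPKM at d6 (SD, n = 3 each), with a difference of the steps of 1.48 (adjusted p = 3.0e-05). Myl7 likewise averaged 691 ± 118 FPKM at d10 and 345 ± 41.4 FPKM at d6 in Carma3xpA/+, and 244 ± 36.2 FPKM at d10 and 422 ± 75.8 FPKM at d6 in WT (difference of the steps 1.77, adjusted p = 0.024). This last call for Myl7 was lost when any 1 of 6 samples was left out, among them Carma3xpA/+ d10 replicate 3 (1.66, adjusted p = 0.066), with values between 1.65 and 1.92 over all 12 omissions. Myh7, which was not called in Carma3xpA/+, fell in WT, to 7.59 ± 1.14 FPKM at d10, against 19.1 ± 1.40 FPKM at d6 (difference of the steps 1.48, adjusted p = 1.3e-05). For these 3 genes the Carma3xpA/+ mean lay below the WT mean at d6 and above it at d10. Acta1 had the highest difference of the steps among genes reaching 5 FPKM (1.90, adjusted p = 0.0082), followed by Myl7, Nppa (1.77), Car3, a carbonic anhydrase of slow muscle (1.76), Cnn1, the smooth muscle calponin (1.71), and the light chain Myl3 (1.70).

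**Figure D4:**
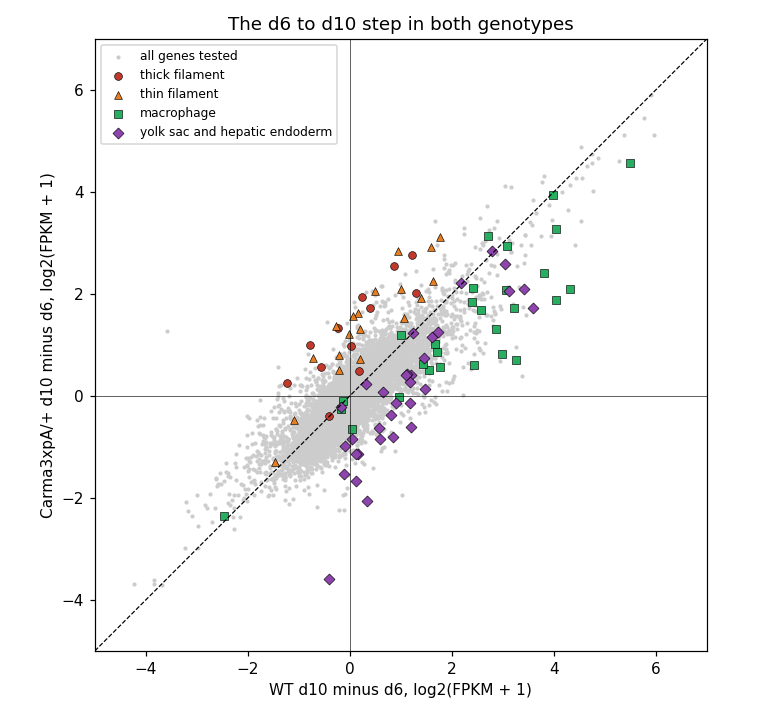
The d10 minus d6 difference of every tested gene in Carma3xpA/+ (vertical axis) against that in WT (horizontal axis), both on the log2(FPKM + 1) scale, with 4 gene lists in colour and a dashed line where both steps are equal. Most filament genes lie above the line, and most macrophage and yolk sac endoderm genes lie below it.

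Short stretches before the start of 4 contractile genes are shown because these genes rose together and each carries a CArG box, the site bound by serum response factor. The sequences are the 250 bases before the RefSeq start on GRCm38.p6, read from 5′ to 3′ on the strand of the gene, with the CArG box in capitals. Acta1 lies at chr8:123894776-123895025 (minus strand), Actc1 at chr2:114052876-114053125 (minus strand), Myl7 at chr11:5898783-5899032 (minus strand) and Myl9, a smooth muscle light chain, at chr2:156775214-156775463 (plus strand).
Acta1: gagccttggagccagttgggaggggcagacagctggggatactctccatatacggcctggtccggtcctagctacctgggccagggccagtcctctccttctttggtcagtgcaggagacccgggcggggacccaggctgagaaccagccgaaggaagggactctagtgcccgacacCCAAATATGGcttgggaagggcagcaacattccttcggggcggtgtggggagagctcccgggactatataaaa
Actc1: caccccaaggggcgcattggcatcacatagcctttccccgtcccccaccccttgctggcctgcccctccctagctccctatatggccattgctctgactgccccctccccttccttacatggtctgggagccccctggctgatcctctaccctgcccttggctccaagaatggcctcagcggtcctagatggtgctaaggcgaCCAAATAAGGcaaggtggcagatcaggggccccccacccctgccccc
Myl7: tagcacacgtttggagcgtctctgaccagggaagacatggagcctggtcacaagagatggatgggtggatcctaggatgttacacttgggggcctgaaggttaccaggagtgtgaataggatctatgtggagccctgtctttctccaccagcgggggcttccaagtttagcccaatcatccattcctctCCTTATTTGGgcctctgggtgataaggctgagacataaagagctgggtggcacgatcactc
Myl9: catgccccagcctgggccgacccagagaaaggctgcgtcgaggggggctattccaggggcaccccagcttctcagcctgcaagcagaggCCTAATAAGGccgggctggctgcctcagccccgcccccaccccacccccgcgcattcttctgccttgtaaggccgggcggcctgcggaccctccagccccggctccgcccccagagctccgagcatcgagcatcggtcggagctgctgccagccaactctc
The box begins 73, 47, 61 and 161 bases before the start in these 4 genes, in the order given. The motif reads the same on both strands. It was found in 10 of 44 such windows of the thick filament, thin filament and smooth muscle genes that rose (22.7%), in 11 of 59 windows of all tested genes of these lists (18.6%) and in 171 of 13067 windows of all genes tested (1.31%), of which 10251 matched the RefSeq table by symbol. The letters AGATAA, searched on both strands of the same windows, were found in 6 of the 44 (13.6%), 10 of the 59 (16.9%) and 797 of the 13067 (6.1%). In 24 windows of globin and red cell genes they were found in 5 (20.8%). A match of letters is a description of these windows and does not show that a factor was bound.

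Smooth muscle genes rose strongly in both genotypes. Of 24 tested in Carma3xpA/+ 17 rose and 2 fell, or 4 without d10 replicate 1 and 1 without d10 replicate 2, d10 replicate 3 or d6 replicate 1, with a median of 1.42, and in WT 15 rose and 2 fell. The list shares Des, Tpm1 and Tpm2 with the thin filament list, and Casq2, Jph2 and Pln with the calcium handling list. Tagln, the smooth muscle marker transgelin, had 526, 513 and 532 FPKM in Carma3xpA/+ d10 samples, against 25.0, 30.0 and 34.4 FPKM in Carma3xpA/+ d6 samples (4.10 ± 0.21, adjusted p = 7.7e-12). Its d10 values lay close together (523 ± 9.56 FPKM, SD, n = 3), while those of Actg2 spread more widely (106 ± 28.0 FPKM). Myl9 had 194, 189 and 220 FPKM at d10, against 23.3, 25.7 and 30.7 FPKM at d6 (2.88 ± 0.20, adjusted p = 6.0e-10). The step differed between genotypes for 3 of the 24 genes, all higher in Carma3xpA/+. Cnn1 was one of them, with a mean of 26.9 ± 5.07 FPKM at d10 and 5.77 ± 0.682 FPKM at d6 in Carma3xpA/+, and 9.97 ± 3.58 FPKM at d10 and 7.47 ± 0.702 FPKM at d6 in WT (SD, n = 3 each; adjusted p = 0.00035).

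Of 12 skeletal muscle genes tested 6 rose and 2 fell (median 0.49), with Des and Myh3 also counted in the filament lists. The lower count was 0 with the length trend removed and 1 without d10 replicate 2 or d6 replicate 1. Myog, the myogenic factor myogenin, had 1.34, 1.36 and 1.83 FPKM in Carma3xpA/+ at d10, against 0, 0.101 and 0 FPKM at d6, a low level that differed from the WT step by 0.98 (adjusted p = 2.1e-05). Mylpf, the fast skeletal light chain, averaged 17.2 ± 3.92 FPKM at d10 and 4.73 ± 0.288 FPKM at d6 in Carma3xpA/+ (SD, n = 3 each). Six4, a homeobox factor upstream of myogenesis, fell by 0.62, and its call was lost with the length trend removed (adjusted p = 0.69).

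Matrix genes rose in larger numbers than they fell. Of 26 collagens 13 rose and 7 fell (median 0.47), and of 41 proteoglycan, glycoprotein and crosslinking genes 26 rose and 5 fell, or 2 with the length trend removed (median 0.79). Thbs1, the adhesive glycoprotein thrombospondin 1, had 83.0, 57.7 and 66.9 FPKM at d10 in Carma3xpA/+, against 1.87, 3.07 and 2.61 FPKM at d6 (4.32 ± 0.30, adjusted p = 5.7e-10). The small proteoglycans Lum and Dcn rose by 3.85 and 3.65, and the fibrillar collagens Col3a1 and Col1a2 by 2.27 and 1.90, with Col8a1, a short-chain collagen of vessels, at 2.76. Versican (Vcan) and Hapln1, its link protein, which belong to the swollen matrix of the early heart, fell by 1.65 and 1.82. Fibronectin (Fn1) fell by 1.08, and this call was lost when the length trend was removed (-0.51). Of 5 fibroblast markers 4 are themselves matrix genes of these lists and rose. The other one, the receptor Pdgfra, averaged 9.02 ± 1.60 FPKM at d10 and 14.1 ± 0.888 FPKM at d6 (SD, n = 3 each) and was not called (-0.60, adjusted p = 0.055). Inhba, the activin A subunit, rose by 2.82.

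Endothelial genes fell together. Of 36 tested 30 fell and 1 rose, with a median of -1.30. Kdr had 4.68, 2.31 and 3.98 FPKM in Carma3xpA/+ d10 samples, against 35.7, 36.0 and 33.3 FPKM in Carma3xpA/+ d6 samples, 9.57-fold lower (-2.99 ± 0.41, adjusted p = 5.3e-06). The single riser, Tinagl1, is a matricellular protein that many other cells also make (2.95). Of the 36 genes, 9 had a step that was less negative in Carma3xpA/+ than in WT and 0 the reverse, against 1.51% of all genes. Dll4, the arterial Notch ligand, averaged 1.07 ± 0.241 FPKM at d10 and 4.48 ± 0.942 FPKM at d6 in Carma3xpA/+, and 0.722 ± 0.137 FPKM at d10 and 7.08 ± 0.187 FPKM at d6 in WT (SD, n = 3 each; difference of the steps 0.84, adjusted p = 0.0014).

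Most red cell genes fell too. Of 30 globin and red cell genes 19 fell and 4 rose (median -0.98), with 2 that rose when any 1 of 5 samples was left out and 1 with the length trend removed. Of 22 blood regulators 14 fell and 4 rose, or 2 without d10 replicate 3 (median -1.15). The embryonic beta-like globin Hbb-bh1 had 61.3, 121 and 75.1 FPKM at d10 in Carma3xpA/+, against 835, 1287 and 1164 FPKM at d6, 12.8-fold lower by the means (adjusted p = 8.9e-06). Hbb-y, the other embryonic beta globin, fell less, to 84.3, 125 and 116 FPKM at d10, against 185, 327 and 221 FPKM at d6 (-1.14 ± 0.32, adjusted p = 0.0048). Hbb-y was above Hbb-bh1 in every d10 sample and below it in every d6 sample. The adult globin Hbb-bs was not called (0.34 ± 0.18, adjusted p = 0.12), with 16.2, 29.7 and 21.6 FPKM at d10 and 15.3, 15.6 and 20.9 FPKM at d6. Other adult globins, given here after their values were seen, were called both ways, with Hbb-bt higher (0.70, adjusted p = 0.0013) and Hba-a1 and Hba-a2 lower (-1.52 and -1.32). Adult globin genes are near-identical copies, and how shared reads were divided among them is not given in the sources used here. Tal1 had 0.710, 0.560 and 1.54 FPKM at d10, against 9.56, 10.7 and 8.43 FPKM at d6 (-2.48 ± 0.14, adjusted p = 2.3e-11). Zfpm1, the GATA1 cofactor, fell by 2.20. Among the regulators that rose were Pf4, a platelet and macrophage chemokine (1.19), and Runx1, the factor of definitive blood (0.51, at 1.34 to 1.67 FPKM at d10).

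Most macrophage genes rose between the 2 days, though some were already present at d6, such as Cd68 (mean 7.79 FPKM) and Spp1 (6.66 FPKM). Of 28 tested 23 rose and 2 fell, or 1 without d10 replicate 1, d6 replicate 1 or d6 replicate 2, with a median of 1.25. Lyz2 had 23.0, 27.2 and 36.1 FPKM in Carma3xpA/+ d10 samples, against 0.402, 0.267 and 0.0769 FPKM in Carma3xpA/+ d6 samples (4.56 ± 0.26, adjusted p = 3.5e-11). Cd52, a leukocyte surface glycoprotein, rose by 3.94 and Spp1, osteopontin, by 3.27. The mannose receptor Mrc1, which yolk sac endothelium also makes, fell by 2.35. The rise of 16 of these 28 genes was smaller in Carma3xpA/+ than in WT and that of 0 larger, against 2.71% and 1.51% of all genes. The complement gene C1qa had 0.656, 0.408 and 0.840 FPKM at d10 in Carma3xpA/+, against 8.35, 8.62 and 8.73 FPKM at d10 in WT, and it is listed at 0 in all d6 samples of both genotypes (difference of the steps -2.56, adjusted p = 2.5e-12). The difference was not even over the list, since the steps of Lyz2 (-0.94, adjusted p = 0.20) and Cd52 (-0.05, adjusted p = 0.94) were not called different. Interferon-stimulated genes rose as well, 20 of 27 with 1 that fell (median 0.85). Isg15, a ubiquitin-like modifier, had 21.4, 51.5 and 31.4 FPKM at d10, against 2.39, 3.06 and 1.98 FPKM at d6 (3.29 ± 0.52, adjusted p = 3.0e-05).

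Endoderm genes moved both ways, and their d10 values varied most between replicates. Of 33 yolk sac and hepatic endoderm genes 10 rose and 8 fell (median 0.07), close to the shares over all genes, while in WT 19 rose and 0 fell (median 1.10). Afp, the fetal albumin-like carrier, had 153, 524 and 400 FPKM in Carma3xpA/+ d10 samples, against 68.2, 124 and 106 FPKM in Carma3xpA/+ d6 samples (1.71 ± 0.30, adjusted p = 9.8e-05). Apob moved the other way, with 1.56, 10.3 and 3.72 FPKM at d10, against 42.0, 76.7 and 71.5 FPKM at d6 (-3.60 ± 0.43, adjusted p = 1.1e-06). Both genes were lowest in replicate 1 and highest in replicate 2 at d10. Transferrin (Trf) rose by 2.83, the vitamin D carrier Gc by 2.59 and Spp2 by 2.21. Cubn, the endocytic receptor cubilin of the visceral endoderm, fell by 2.06 and Apoc2, a lipoprotein lipase cofactor, by 1.67. The difference of the steps was called for 5 genes of the list, all lower in Carma3xpA/+. For Apob it was -3.18 (adjusted p = 0.0030), and the genotypes differed mainly at the start, since WT had 4.21, 7.05 and 18.9 FPKM at d10 and 7.51, 11.7 and 17.3 FPKM at d6. Cubn averaged 2.18 ± 1.36 FPKM at d10 and 11.5 ± 1.90 FPKM at d6 in Carma3xpA/+, and 1.74 ± 0.935 FPKM at d10 and 1.11 ± 0.471 FPKM at d6 in WT (SD, n = 3 each). Without d10 replicate 2, the sample richest in endoderm markers, 9 of the 33 genes rose and 12 fell.

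**Figure D5:**
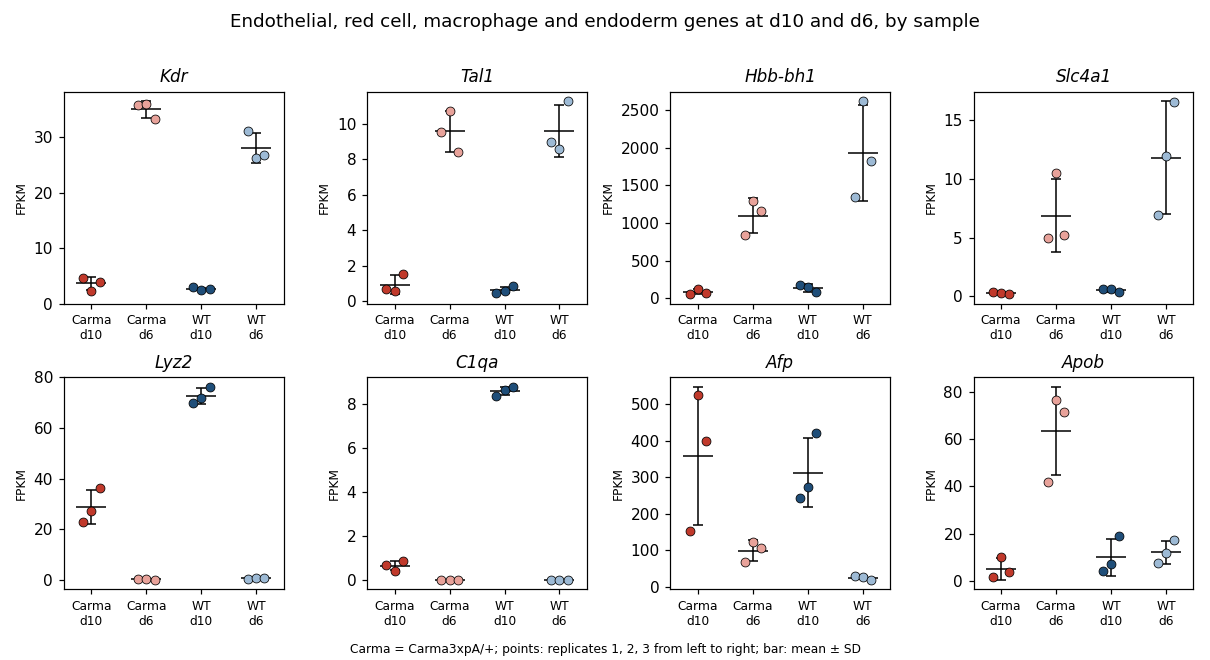
FPKM (vertical axis, each panel on its own scale from about 0) of 2 endothelial and blood genes (Kdr, Tal1), 2 red cell genes (Hbb-bh1, Slc4a1), 2 macrophage genes (Lyz2, C1qa) and 2 endoderm genes (Afp, Apob) in Carma3xpA/+ d10, Carma3xpA/+ d6, WT d10 and WT d6, with a point for each replicate and a bar for the mean ± SD. Kdr, Tal1, Hbb-bh1 and Slc4a1 are lower at d10 in both genotypes, C1qa reaches 8.35 to 8.73 FPKM in WT d10 samples and stays under 1 FPKM in Carma3xpA/+, and Apob is high at d6 in Carma3xpA/+ only.

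Transcription factors of the endoderm were split, with 4 of 20 higher and 7 lower (55% called, beside 55.3% of all genes). Sox7, a factor of endoderm and early endothelium, fell by 2.04, and Hhex, shared by liver bud and blood, by 1.80, while Cebpb and Klf5 rose by 1.18 and 1.05. Trophoblast genes showed 4 higher and 5 lower of 20, so 45% were called, beside 55.3% of all genes. Without d10 replicate 1 the higher count was 7, and without d6 replicate 1 the lower count was 2. Of the 20 steps 7 were lower in Carma3xpA/+ than in WT, beside 2.71% of all genes. The placental prolactin Prl2b1 had 0.998, 1.51 and 0.507 FPKM in Carma3xpA/+ at d10 and 0.476, 0.388 and 0.653 FPKM at d6, while WT averaged 14.7 ± 2.44 FPKM at d10 and 0.524 ± 0.341 FPKM at d6 (difference of the steps -2.99, adjusted p = 3.4e-08). The placental cathepsin Ctsj (-2.29) and the prolactin Prl3b1 (-2.26) followed it among the lowest differences.

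Neural genes rose more often than they fell, 12 against 5 of 30 (median 0.33), although only 7 rose without d10 replicate 1. Nefl, a neurofilament, had 10.2, 29.2 and 22.2 FPKM at d10 in Carma3xpA/+, against 1.82, 1.41 and 1.24 FPKM at d6 (3.00 ± 0.26, adjusted p = 1.3e-08). In the same d10 samples the sum of 5 neural markers ran the other way, at 50.6, 24.3 and 36.0 FPKM. Which cells made Nefl was not tested. Tubb3, the neuronal tubulin, rose by 2.61, while Msi1, an RNA-binding protein of neural progenitors, fell by 0.96. Fabp7, the radial glia fatty acid binder, averaged 10.9 ± 5.44 FPKM at d10 and 2.17 ± 0.334 FPKM at d6 in Carma3xpA/+, and 24.6 ± 4.00 FPKM at d10 and 1.79 ± 0.437 FPKM at d6 in WT (SD, n = 3 each; difference of the steps -1.39, adjusted p = 0.013).

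Genes of the undifferentiated state rose more often than they fell. Of 35 pluripotency genes 18 rose, 7 fell and 10 were not called (median 0.43). Over all genes 26.2% rose and 29.1% fell. The sum of 5 markers of this state was 99.8, 68.0 and 111 FPKM at d10 in Carma3xpA/+, against 59.9, 63.2 and 49.0 at d6. In WT it was 54.4, 49.0 and 29.8 FPKM at d10, against 48.5, 42.8 and 38.4 at d6. Of these markers Pou5f1 and Zfp42 were called higher in Carma3xpA/+, while Nanog, Esrrb and Tdgf1 were not called. Dppa5a, an RNA-binding protein of the early embryo, had 80.3, 75.9 and 109 FPKM at d10 in Carma3xpA/+, against 33.4, 31.2 and 29.2 FPKM at d6 (1.45 ± 0.38, adjusted p = 0.0030). The Nodal antagonist Lefty1 rose by 1.79 and Klf4 by 1.41, while Trim71 (-1.28) and Lin28b (-1.16), RNA regulators of developmental timing, fell. Tbx3 fell by 1.21 in Carma3xpA/+ but was not called in WT (difference of the steps -1.11, adjusted p = 0.018, and up to 0.0551 with a sample left out).

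Of 32 mitosis genes 16 fell and 2 rose (median -0.24), with 1 higher once the length trend was removed and 0 without d10 replicate 2, d10 replicate 3 or d6 replicate 3. Of 35 replication genes 11 fell, a share near the 29.1% of all genes, and 6 rose, or 2 without d10 replicate 2 (median -0.10). The lower count was 7 with median-of-ratios and 17 with quantile normalization. Mki67, the nuclear antigen of cycling cells, had 27.3, 12.3 and 14.3 FPKM at d10 in Carma3xpA/+, against 51.9, 49.4 and 48.1 FPKM at d6 (-1.50 ± 0.21, adjusted p = 6.4e-06). Cenpf, a kinetochore protein, fell by 1.56 and the spindle motor Kif11 by 1.18. These are long transcripts, and with the length trend removed all 3 were still called, at -1.08, -1.46 and -0.75. The risers Aurka (0.27) and Plk1 (0.35), both mitotic kinases, were not called once it was removed (adjusted p = 0.088 and 0.22). Inhibitors of the cycle rose, with 20 of 30 p53 targets and cell cycle inhibitors higher and 6 lower (median 0.62). The lower count was 3 with the length trend removed and 2 without d10 replicate 2 or d10 replicate 3. Cdkn1a, the p21 gene, had 113, 129 and 130 FPKM at d10, against 30.5, 27.8 and 31.2 FPKM at d6 (2.02 ± 0.09, adjusted p = 6.9e-13). Cdkn2b and Cdkn2a, the INK4 and ARF genes, rose by 3.99 and 3.44.

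Energy metabolism genes rose on the oxidative side. Of 44 respiratory chain genes 42 rose and 0 fell (median 0.60), and of 32 genes of fatty acid uptake and oxidation 24 rose and 1 fell (median 0.45). The lower count was 2 with the length trend removed or without d6 replicate 1 or 3, and 3 without d10 replicate 1. Fabp3, the heart fatty acid binding protein, had 157, 509 and 336 FPKM at d10 in Carma3xpA/+, against 27.8, 33.2 and 28.6 FPKM at d6 (3.29 ± 0.30, adjusted p = 2.8e-08). Its highest value was in the sample richest in endoderm markers, and the part of that sample's make-up was not tested. Cpt1a, the gate of mitochondrial fatty acid import, rose by 2.03, and Cox6a2, the muscle form of a cytochrome oxidase subunit, by 1.98. Among the 13 genes of the mitochondrial genome 11 rose and 0 fell (median 0.97). The respiratory chain list holds short transcripts, with a median of 754 nucleotides, and with the length trend removed 37 of its 44 genes rose, by a median of 0.46. Glycolysis and hypoxia genes fell more often than they rose, 13 against 4 of 32 records. The glucose transporter Slc2a3 had 89.6, 134 and 117 FPKM at d10, against 328, 241 and 326 FPKM at d6 (-1.39 ± 0.15, adjusted p = 2.6e-07). The muscle phosphoglycerate mutase Pgam2 rose by 2.16, and its step was 1.55 higher than in WT (adjusted p = 4.4e-05).

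Across the whole transcriptome the Carma3xpA/+ step and the WT step, which share no samples, had many calls in common. Of the 3508 genes that rose in Carma3xpA/+ and the 3295 that rose in WT, 2561 rose in both, 73.0% and 77.7% of these lists. The shares over all genes to set beside these are 24.6% higher in WT and 26.2% higher in Carma3xpA/+. Of the 3890 that fell in Carma3xpA/+ and the 3191 that fell in WT, 2602 fell in both, 66.9% and 81.5% of them, beside 23.9% of all genes lower in WT and 29.1% lower in Carma3xpA/+. Opposite calls were made for 14 genes higher in Carma3xpA/+ and lower in WT, and for 27 genes lower in Carma3xpA/+ and higher in WT.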

How the data were processed

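Poly(A) RNA-seq values were deposited by the authors as FPKM for 14737 protein-coding gene records in 24 samples. The tools named per the submitters' processing notes are StringTie, HISAT2, cutadapt and FastQC, and the build is mm10. Tool versions are not given here. Per the labels' protocols the libraries were stranded. Low FPKM values did not resolve into whole reads (4 of 118 genes under 0.1 FPKM shared the most frequent ratio between 2 samples), so depth is unknown and a count test could not be run.

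From the deposited FPKM, log2(FPKM + 1) was modelled in limma 3.58.1 (R 4.3.3, moderated test, mean-variance trend) as 8 group means over 24 samples, which share 1 estimate of the spread with 16 residual degrees of freedom. Entry required 1 FPKM or more in 3 samples or more, which left 13373 genes. Contrasts were Carma3xpA/+ d10 minus d6, WT d10 minus d6 and their difference, and p-values were Benjamini-Hochberg adjusted over all genes. The fit was tested on simulated data.

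Genes were named by a rule: the 10 largest calls each way with no overlap between the groups and at least 5 FPKM in a group, up to 3 calls each way per list, a set of single cardiac, globin and marker genes, the 6 largest differences of the steps each way, and called genes within 500 kb of Gata5. Some genes that met the rule are not reported here. The comparison, the 32 gene lists and the single genes were chosen with earlier results of these data known. Transcript length is the median over a gene's GENCODE M21 protein-coding transcripts. The length trend was removed by subtracting, in each library, the median deviation in 20 bins of length. Promoter windows came from a RefSeq table (GRCm38.p6), matched by symbol. Alternatives changed the pseudocount, filter, normalization, samples in the fit, replicate block and fold requirement, and left out each sample in turn.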

Additional observations from a re-analysis of the deposited data

Results flagged for a closer look

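Among the genes named by rule, the d10 minus d6 step differed between Carma3xpA/+ and WT for 46 (limma, adjusted p under 0.05), and each difference below is the Carma3xpA/+ step minus the WT step on the log2(FPKM + 1) scale. Sarcomere genes made up the largest group, all with positive differences: Acta1 1.90, Myl7 1.77, Myl3 1.70, Myl2 1.67, Actc1 1.65, Myl4 1.56, Mybphl 1.56, Myh7 1.48, Tnni1 1.48, Tnni3 1.36, Csrp3 1.32, Tnnt2 1.11, Myh6 0.95 and Smpx 0.73. Other muscle genes had positive differences too, with Nppa at 1.77, Car3 at 1.76, Cnn1 at 1.71, Pgam2 at 1.55, Casq1 at 1.33, Mylpf at 1.12, Nppb at 1.04, Popdc2 at 1.00, Cox8b at 1.00 and Myog at 0.98. The remaining positive differences were 0.84 for Dll4, 0.82 for Gata5, 0.54 for Irx4 and 0.39 for Cacna1d.

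Negative differences were found for genes of endoderm, placenta and macrophages, with Apob at -3.18, Prl2b1 at -2.99, C1qa at -2.56, Cubn at -2.40, Ctsj at -2.29, Prl3b1 at -2.26, Afp at -1.88, Plac1 at -1.32 and Spp1 at -0.77. Fabp7 (-1.39), Hoxa11 (-1.11), Tbx3 (-1.11), Lama5 (-0.84), Hoxd1 (-0.83), Dkk2 (-0.72), Pola1 (-0.70), Upk1b (-0.67) and Cpt1a (-0.56) also had lower steps in Carma3xpA/+. Plac1, a placental membrane protein, stood at 14.1 ± 1.92 FPKM at d10 and 32.3 ± 8.03 FPKM at d6 in Carma3xpA/+, and at 8.20 ± 0.496 FPKM at d10 and 7.03 ± 0.937 FPKM at d6 in WT (SD, n = 3 each).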

How the results depend on the processing

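The count of 7398 genes called in Carma3xpA/+ moved by more than 1.5 times only when a log2 difference of at least 1 was also required (1371, with 719 higher and 652 lower). Leaving out 1 Carma3xpA/+ d10 or d6 sample gave 6227 to 7689 (3061 to 3527 higher, 3082 to 4162 lower). In WT that requirement left 1350 genes (922 higher, 428 lower), and a filter at 5 FPKM left 2123 lower. The balance of directions in Carma3xpA/+ also depended on the setting, with 3508 higher and 3890 lower in the main fit. It was 3767 higher and 3600 lower with median-of-ratios normalization, and 3145 and 3082 without d10 replicate 2. The 565 differences between the steps depended more on the settings. A pseudocount of 0.1 gave 235 (96 higher, 139 lower), a filter at 5 FPKM 190 (84 and 106) and a log2 difference of at least 1 gave 214 (87 and 127). Quantile normalization gave 338 higher. Leaving out 1 sample gave 391 to 937 (138 to 314 higher, 253 to 693 lower), with the highest total without Carma3xpA/+ d10 replicate 1. Without Carma3xpA/+ d0 replicate 1, which stood apart from its group and only entered the shared spread, 1077 were called (376 and 701), a setting chosen after seeing the data. The same setting gave 8270 calls between d10 and d6 in Carma3xpA/+.

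Replicate numbers did not pair the samples: deviations of same-numbered Carma3xpA/+ samples correlated at 0.0657, -0.0481 and 0.0324. With a replicate block 7283 genes were called in Carma3xpA/+ and 569 differences of the steps, and with the block and only the compared groups 6149 and 364 (120 higher).

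Removing the length trend, also chosen after seeing the data, gave 6920 calls in Carma3xpA/+ (3505 higher, 3415 lower) and 607 differences of the steps. It reversed the sign of Atp2a2 (0.25, adjusted p = 0.048), Cacna1d (0.0869), Hcn4 (0.063), Myh7b (0.16), Ryr2 (0.0756) and Ss18l1 (0.0036). Of 201 named genes called in Carma3xpA/+, 164 were called in every other setting than the fold requirement. Of 46 named differences of the steps, 13 lost their call in at least 1 of the 12 fits that left out a sample: Actc1, Casq1, Cpt1a, Hoxd1, Irx4, Myh6, Myl7, Nppb, Pola1, Smpx, Spp1, Tbx3 and Tnnt2 (adjusted p up to 0.142, for Nppb), and their signs did not change. FPKM without counts leaves the depth unknown, so no counting error could be given.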

Other observations

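Signalling genes not described above were mixed. Of 26 Notch pathway genes 16 fell and 2 rose, or 4 without d10 replicate 2, between d6 and d10 in Carma3xpA/+ (median -0.55), with Hey2, a Notch target of the ventricle and arteries, at 1.70, 0.583 and 1.34 FPKM at d10, against 4.77, 5.38 and 5.19 FPKM at d6 (-1.50 ± 0.16, adjusted p = 2.1e-07). Notch1 fell by 1.37, while Heyl rose by 1.21 and Hes6 by 0.70. Of 35 Wnt pathway genes 12 rose and 12 fell, or 7 without d10 replicate 2. The secreted antagonists Dkk2 and Dkk3 rose by 1.90 and 1.29, while Frzb and the receptors Fzd7 and Ror1 fell by 0.92, 0.95 and 1.23. Of 34 BMP and TGF-beta genes 11 rose and 10 fell, so 61.8% were called, beside 55.3% of all genes. The ligand Tgfb3 rose by 1.92, while Bmp5 and Bmp2 fell by 1.78 and 1.54, and Bmp2 lost its call without d10 replicate 2. Acvrl1, an endothelial receptor of this family, fell by 1.61.

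Hox genes, which set position along the body axis, fell more often than they rose. Of 27 tested 12 fell and 2 rose, or 1 without d10 replicate 1 or d6 replicate 2 (median -0.32), and 9 steps were lower in Carma3xpA/+ than in WT with 0 higher, beside 2.71% and 1.51% of all genes. Hoxa11, a posterior gene, averaged 5.68 ± 1.28 FPKM at d10 and 3.91 ± 0.887 FPKM at d6 in Carma3xpA/+, and 4.49 ± 0.194 FPKM at d10 and 0.869 ± 0.175 FPKM at d6 in WT (SD, n = 3 each), so the genotypes were further apart at d6. Hoxd1 and Hoxd9 fell by 1.34 and 1.28. Of 25 primitive streak genes 6 fell and 2 rose, or 3 and 4 without d10 replicate 2 (3 fell without d6 replicate 1 too). Of 30 mesenchymal and epicardial regulators 8 rose and 8 fell, so 53.3% were called, beside 55.3% of all genes. Upk1b, a mesothelial uroplakin, had 4.14, 6.02 and 4.92 FPKM at d10, against 0.692, 0.758 and 0.759 FPKM at d6, and the mesenchymal factors Foxc2 and Snai2 fell by 1.29 and 1.05. Of 26 imprinted genes 12 fell and 4 rose (median -0.35), with Phlda2, a growth restrainer of the placenta, at -1.07 and Igf2r at -0.999. With the length trend removed the values of Igf2r (-0.43) and Notch1 (-0.94) were smaller, and their sign was the same.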
